A study of Mus musculus with 8 samples.

Results

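The 49 mitosis and kinetochore genes are a list of named genes covering the machinery of cell division, from the kinase that starts mitosis to the ring that ends it. They were listed by name, but with earlier results of these data known. All 49 were found among the 32574 genes of the deposited table and passed the filter on low values. The libraries are RNA sequencing of epithelial cells of mouse skin epidermis, isolated by fluorescence-activated cell sorting (FACS), and the study addressed how basal epidermal cells spread as clones and how the tissue becomes fluid after ablation. There were 4 groups of 2 libraries, namely Lrig1 ablation, Lrig1 control, K14 ablation and K14 control. The genotype label of both ablation groups is basal lineage ablation, and that of both control groups is WT. K14 is the protein of Krt14, a basal keratin, and Lrig1 is known from stem cells of the upper part of hair follicles. What K14 and Lrig1 stand for (a Cre driver, a sort gate, the lineage lost), the ablating agent, the time after ablation and the age of the mice are not stated by the labels, so the names are used only as labels. The labels also leave unsaid whether the libraries of a group are separate mice. The p-values therefore speak of the spread between libraries, which may be technical.

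In a dividing cell, CDK1 bound to cyclin B drives entry into mitosis, and Polo-like and Aurora kinases build the spindle. The kinetochore assembles on centromeric chromatin marked by the histone variant CENP-A and attaches chromosomes to microtubules, and the spindle assembly checkpoint holds the anaphase-promoting complex (APC/C) inactive until all are attached. In epidermis these events take place mainly in the basal layer, and most of the genes are transcribed in a burst in G2 and mitosis under MuvB complexes with B-Myb and FoxM1. Levels in bulk RNA are known to track the share of cells in these phases, and fewer cells in mitosis and less of each RNA per cell cannot be told apart in these libraries.

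The promoters of such genes are known for a pair of short elements, the CCAAT box bound by NF-Y and the cell cycle genes homology region (CHR) bound by MuvB complexes. The windows shown are those of Cenpa, Bub1b and Cdc25b, which passed the test of the mean ablation effect given further on, of Plk1, which had the largest mean effect and was added after its values were seen, and of Bub3, which had the smallest. Each runs from 250 bases before to 50 bases after the annotated start, 300 bases on the plus strand, from RefSeq on GRCm38.p6. Capitals mark the CCAAT box, which reads ATTGG when it lies on the other strand. Capitals also mark the CHR, searched as TTTGAA and, where that element lies on the opposite strand of the window, as TTCAAA, and in a variant form that reads alike on both strands, TTTAAA. The positions are chr5:30666636-30666935 for Cenpa, chr2:118597961-118598260 for Bub1b, chr2:131186698-131186997 for Cdc25b, chr7:122159185-122159484 for Plk1 and chr7:131560120-131560419 for Bub3. For Bub3 this is 1 of 2 listed windows.
Cenpa: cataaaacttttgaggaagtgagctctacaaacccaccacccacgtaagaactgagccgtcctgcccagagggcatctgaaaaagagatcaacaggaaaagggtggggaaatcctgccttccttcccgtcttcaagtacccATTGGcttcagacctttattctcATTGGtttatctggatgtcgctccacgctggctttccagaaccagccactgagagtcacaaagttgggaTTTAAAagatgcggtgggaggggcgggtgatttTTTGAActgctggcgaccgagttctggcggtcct
Bub1b: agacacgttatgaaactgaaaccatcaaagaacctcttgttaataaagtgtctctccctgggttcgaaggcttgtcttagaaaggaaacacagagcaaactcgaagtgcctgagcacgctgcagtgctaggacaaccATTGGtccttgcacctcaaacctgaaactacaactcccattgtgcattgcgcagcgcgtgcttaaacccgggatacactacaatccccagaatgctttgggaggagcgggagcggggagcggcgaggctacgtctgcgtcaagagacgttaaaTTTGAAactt
Cdc25b: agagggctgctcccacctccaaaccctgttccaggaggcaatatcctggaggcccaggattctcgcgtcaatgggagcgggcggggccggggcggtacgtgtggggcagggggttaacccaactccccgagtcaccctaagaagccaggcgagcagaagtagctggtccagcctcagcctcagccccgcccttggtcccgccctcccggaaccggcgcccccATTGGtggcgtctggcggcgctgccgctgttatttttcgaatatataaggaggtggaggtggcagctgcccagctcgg
Plk1: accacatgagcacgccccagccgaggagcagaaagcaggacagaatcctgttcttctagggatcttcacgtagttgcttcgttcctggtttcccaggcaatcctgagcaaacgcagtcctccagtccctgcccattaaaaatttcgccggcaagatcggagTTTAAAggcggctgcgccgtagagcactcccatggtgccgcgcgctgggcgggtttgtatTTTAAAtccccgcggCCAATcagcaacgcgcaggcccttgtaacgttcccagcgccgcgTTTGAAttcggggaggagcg
Bub3: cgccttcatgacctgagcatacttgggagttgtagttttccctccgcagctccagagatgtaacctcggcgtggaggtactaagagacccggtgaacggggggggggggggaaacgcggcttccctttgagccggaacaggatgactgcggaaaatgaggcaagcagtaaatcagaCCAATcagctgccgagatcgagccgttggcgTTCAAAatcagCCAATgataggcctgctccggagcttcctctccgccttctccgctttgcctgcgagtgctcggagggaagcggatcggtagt

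The Cenpa window holds CCAAT boxes whose first bases lie 109 and 86 bases before the start and CHR letters at 17 bases before and 16 after it. Plk1 holds CHR letters at 89 and 29 bases before and 30 after the start, with a CCAAT box 14 bases before it. Bub1b has 1 CCAAT box 113 bases before and CHR letters 40 bases after the start, and Cdc25b has 1 CCAAT box 28 bases before it. The letters TTCGAA, left in lower case in the Bub1b and Cdc25b windows, were not among the CHR forms searched. The Bub3 window, from the gene with the smallest ablation effect, also holds both motifs, with CCAAT boxes at 74 and 32 bases before the start and CHR letters at 43.

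Of the 49 genes, 41 had a promoter in the RefSeq table, and Tpx2, Incenp, Aurkb, Cdc25c, Spc24, Ccna2, Dlgap5 and Smc4 had no entry. A CCAAT box was present in 31 of the 41 (75.6%), against 41.1% of all 27025 genes in that table, and CHR letters were present in 30 (73.2%), against 30.6%. Both motifs were present in 26 (63.4%), against 12.2% of all genes, and at least 2 CCAAT boxes in 20 (48.8%), against 13.3%. In the shorter window from 100 bases before to 50 after the start, both motifs were present in 22 of the 41 (53.7%), against 3.5% of all genes. Both strands were searched, a gene with several windows counts if any window holds the motif, and a CCAAT box and CHR letters overlapped once in the members' windows. These are matches of letters, not measured binding sites, and CHR forms that were not searched are not counted. Knstrn, Mad2l1, Ncaph, Nuf2, Nusap1 and Pttg1 had neither motif in their windows, and Ube2c and Top2a had the most CCAAT boxes, 6 each.

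**Figure D1:**
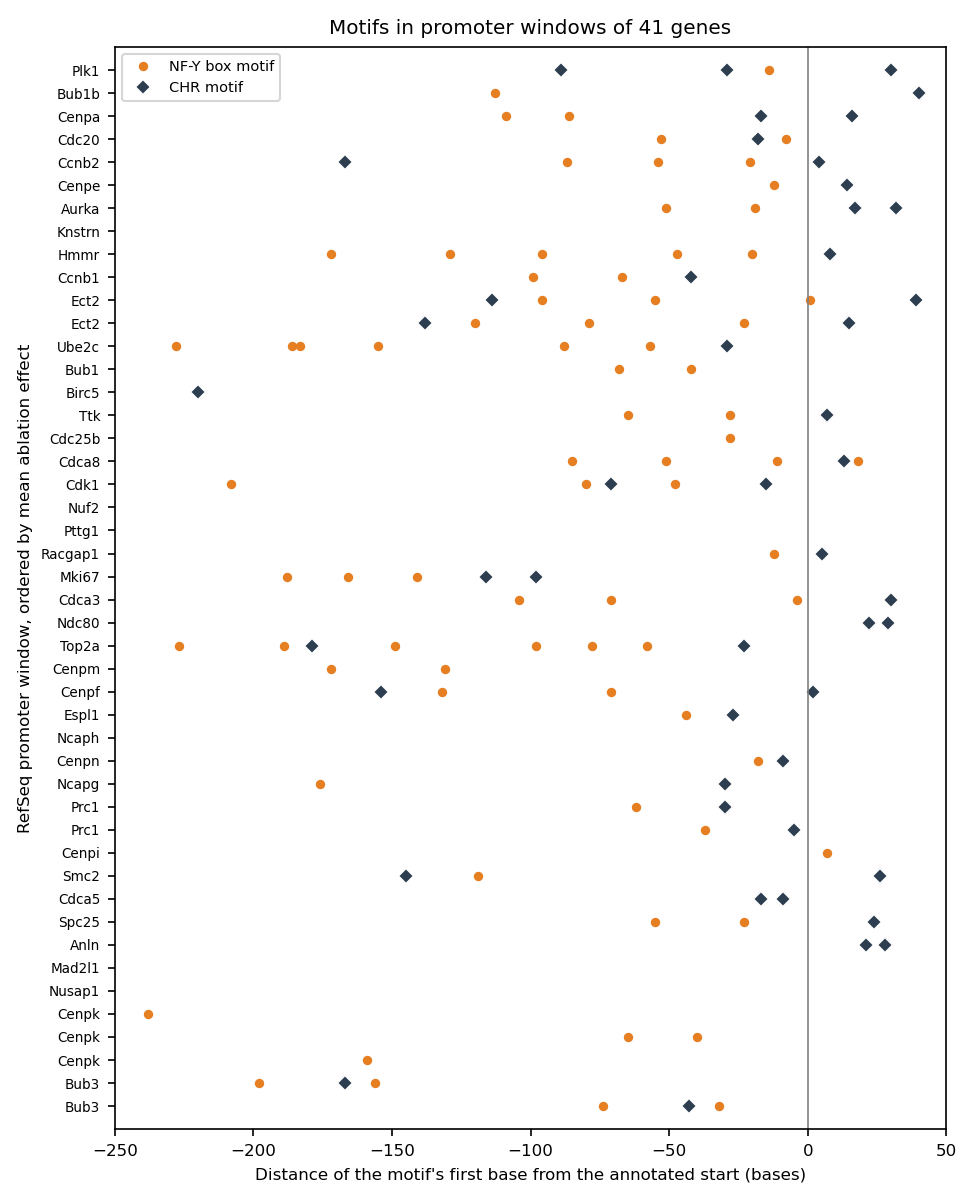
Positions of CCAAT boxes (circles) and CHR motifs (diamonds) in the promoter windows of 41 genes, 1 row per window, ordered by mean ablation effect. The x axis is the distance in bases of the motif's first base from the annotated start (grey line). Of 48 CHR matches, counted per window, 36 lie within 50 bases of the start. Sites in the overlapping windows of Bub3, Ect2 and Prc1 count more than once, and no share over all genes is given for this range.

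Across the 8 libraries the 49 genes were high or low together, and the 2 libraries of each ablation group lay far apart. The normalised read counts of the 49 summed to 33284 and 18978 in Lrig1 ablation, against 13303 and 14471 in Lrig1 control, and to 42543 and 26060 in K14 ablation, against 23455 and 23726 in K14 control. As a share of all reads this was 0.423 and 0.262% in Lrig1 ablation, against 0.150 and 0.159% in Lrig1 control, and 0.516 and 0.313% in K14 ablation, against 0.279 and 0.281% in K14 control. In both labels, each ablation library was above each control library of its own label in the sum. Replicate 1 was above replicate 2 in 49 of 49 genes in Lrig1 ablation (median log2 difference 0.87) and in 48 of 49 in K14 ablation (0.57), whereas the median difference between control replicates was 0.14 in Lrig1 and 0.04 in K14. K14 ablation replicate 1 held the highest value of 46 genes, and Lrig1 control replicates 1 and 2 the lowest of 33 and 14. Lrig1 ablation replicate 2, though above its own controls in 47 and 43 genes, was above the K14 control replicates in only 5 and 4.

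**Figure D2:**
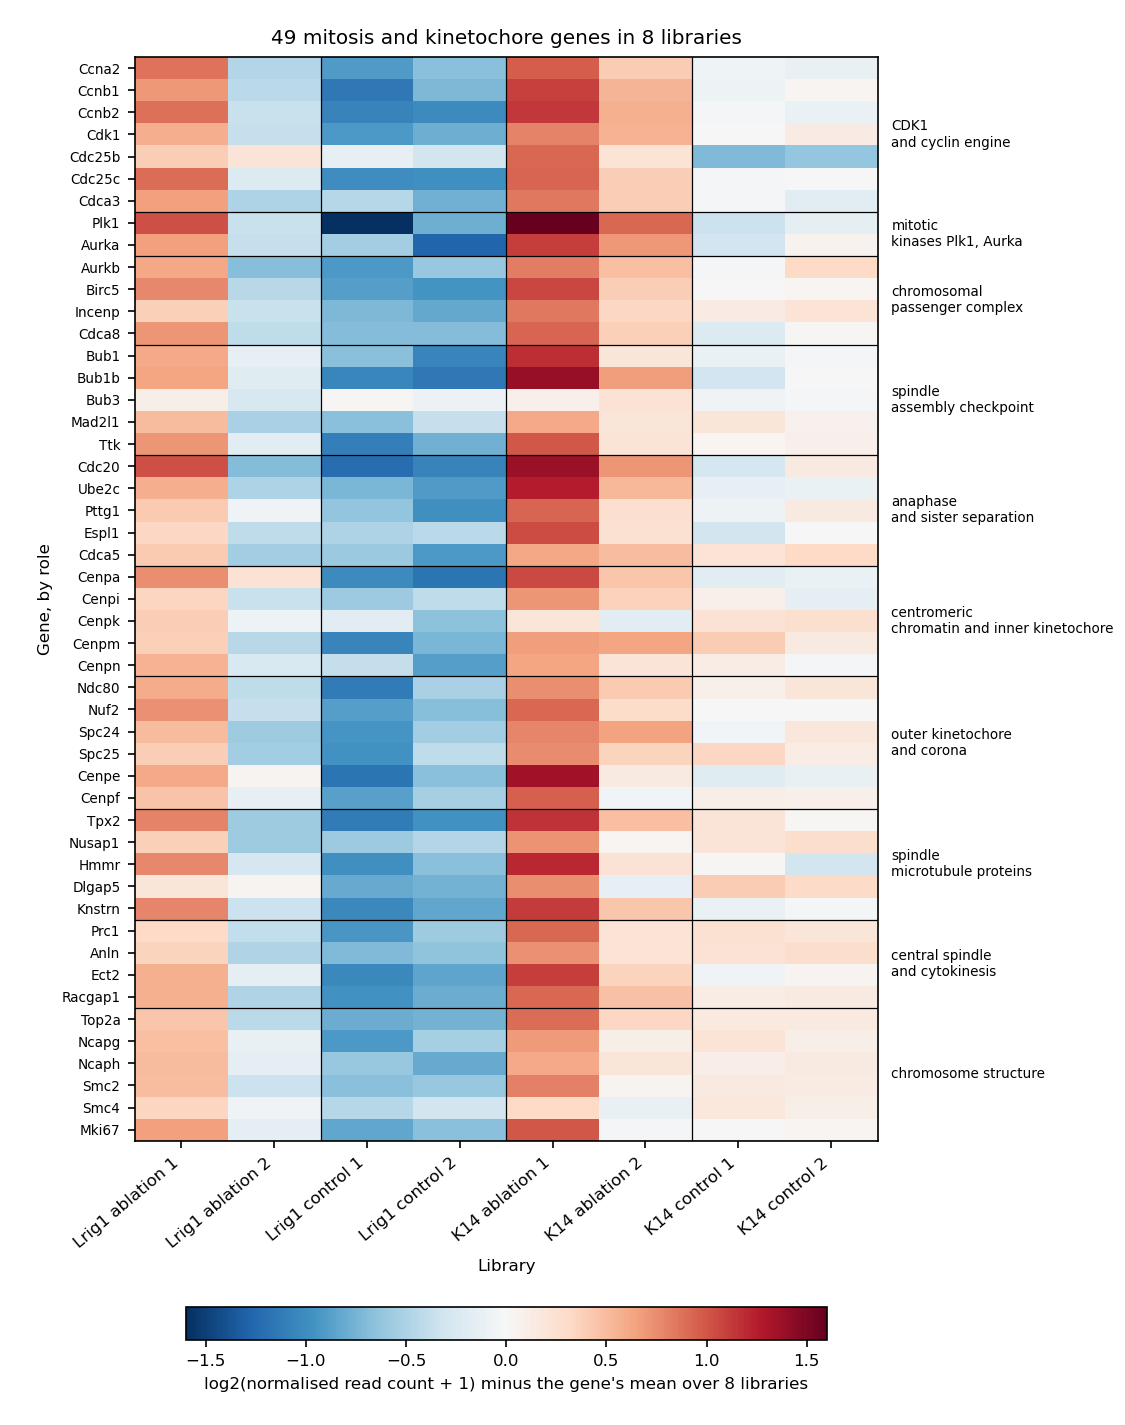
Each row is 1 of the 49 genes, grouped by role, and each column 1 library. Colour gives log2(normalised read count + 1) minus the gene's mean over the 8 libraries (red above, blue below). K14 ablation replicate 1 is the reddest column, with a median deviation of 0.92, and Lrig1 control replicate 1 the bluest, with -0.88.

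Depth was 6458636 to 11654135 reads per library, and the smallest count behind any value of the 49 genes was 21 reads. The reads of the 2 libraries of a group differed by more than sampling noise in every group, with a chi-square per gene of 39.5 for Lrig1 ablation, 2.58 for Lrig1 control, 27.7 for K14 ablation and 1.57 for K14 control, where counting error alone gives about 1, so between the control replicates counting error is a large part of the spread. An exact two-sided permutation test of 2 against 2 libraries cannot give a p under 0.333, so the tests below are limma's, which pools the spread over all 8 libraries and over genes. The 7 basal keratinocyte markers, Krt5 and Krt14 among them, were abundant in every library, and markers of erythroid cells were at or near 0. Of the 49 genes, 13 share exon sequence with another annotated gene, 12 of them on the opposite strand, Plk1, Cdc20 and Cdc25b included. Whether counting used strand is not stated, so their reads and those of the partner cannot be told apart.

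Most of the 49 genes had higher point estimates under ablation, and the difference was tested first within each label. In Lrig1, 48 of 49 genes had a positive log2 fold change (median 0.90, range -0.04 to 1.73), against a median of -0.02 and 48.4% positive over all 18140 tested genes. In K14, 46 of 49 were positive (median 0.57, range -0.23 to 1.55), against -0.00 and 49.7% over all genes. By limma with Benjamini-Hochberg adjustment over all tested genes at 0.05, 1 of the 49 passed in Lrig1, where 4.06% of all genes did, and 0 of 49 passed in K14, where 0.187% did. At an unadjusted p under 0.05, 36 of 49 were higher in Lrig1 ablation than in Lrig1 control, beside 7.99% of all genes, and 12 of 49 were higher in K14 ablation than in K14 control, beside 6.74%. None of the 49 was lower at that level in either label. By edgeR's quasi-likelihood test 1 passed the adjusted threshold in Lrig1 (3.24% of all genes) and 0 in K14 (0.176%), and by DESeq2 21 passed in Lrig1 (5.5%) and 3 in K14 (1.22%).

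The size of both effects depended on single libraries. The Lrig1 median was 0.42 without Lrig1 ablation replicate 1 and 1.38 without replicate 2. The Lrig1 count at an unadjusted p under 0.05 was 10 without Lrig1 ablation replicate 1 (32.3% of all genes, either direction), 12 without Lrig1 control replicate 1 (11.7%) and 20 without Lrig1 control replicate 2 (10.8%). The adjusted count in Lrig1 was 36 without Lrig1 ablation replicate 2 (11.8%), 5 without either K14 ablation library (5.9 and 5.8% without replicate 1 and 2) and 0 without any single control library (0.0279 to 1.01%). The K14 median was 0.33 without K14 ablation replicate 1 and 0.895 without replicate 2, and with each of the 8 libraries left out in turn the K14 count at an unadjusted p under 0.05 was 3 to 29 (4.64 to 23.9%). The adjusted count in K14 was 2 without either Lrig1 ablation library (3.81 and 4.17%) and 1 without K14 ablation replicate 2 (1.46%).

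Without replicates being averaged, both Lrig1 ablation libraries lay above both Lrig1 control libraries in 42 of 49 genes, where 21.4% of all genes did so. Both K14 ablation libraries lay above both K14 control libraries in 38 of 49, where 27.4% of all genes did so. Both conditions held in 33 of 49, beside 7.01% of all genes. The groups overlapped in Lrig1 for Cdca3, Aurkb, Bub3, Mad2l1, Spc24, Spc25 and Nusap1, and in K14 for Mad2l1, Cenpf, Nusap1, Dlgap5, Prc1, Anln, Ncapg, Smc2, Smc4 and Mki67. Only Cenpk was lower in both K14 ablation libraries than in both K14 control libraries, which 25.7% of all genes were.

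The mean of both ablation effects used all 8 libraries. All 49 genes had a positive mean effect (median 0.73, range 0.08 to 1.64), where the median over all genes was -0.01. Cenpa, Bub1b and Cdc25b passed the threshold, 3 of 49, where 2.83% of all genes passed and 0.805% passed as higher. At an unadjusted p under 0.05, 39 of 49 were higher, beside 8.07% of all genes. The same 3 passed by edgeR, where 2.3% of all genes did, and 29 passed by DESeq2, where 5.07% did. With any single one of the 4 control libraries left out 0 of 49 passed by limma, where 0.246 to 0.3% of all genes did, with 29 to 35 at an unadjusted p under 0.05 (11.4 to 12.6%). Without Lrig1 ablation replicate 2 there were 42, where 14.6% of all genes passed, without K14 ablation replicate 2 there were 10 (4.4%), and without Lrig1 ablation replicate 1 there were 6 (8.9%) and the median was 0.48.

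**Figure D3:**
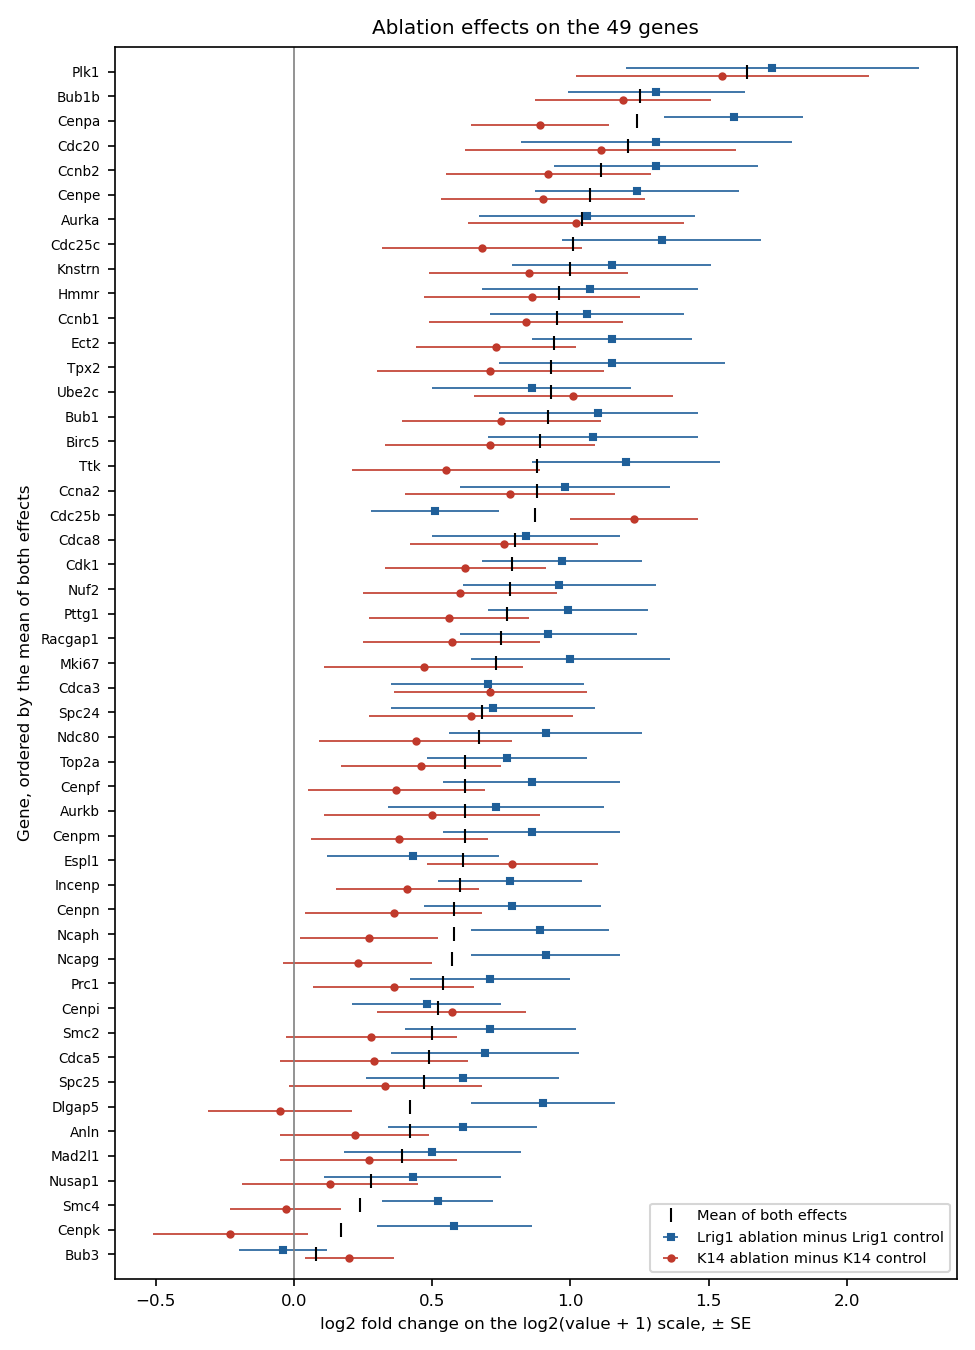
The log2 fold change (x axis, on the log2(value + 1) scale, ± SE) of Lrig1 ablation against Lrig1 control (squares) and K14 ablation against K14 control (circles) for the 49 genes, ordered by the mean of both (black ticks). Plk1 is at the top with a mean of 1.64 and Bub3 at the bottom with 0.08.

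The CDK1 and cyclin genes, which fire mitotic entry, had a median mean effect of 0.88, with all 7 positive in both labels. Ccnb2, a B-type cyclin, had 379.8 and 161.6 normalised reads in Lrig1 ablation, against 97.8 and 101.5 in Lrig1 control, and 454.9 and 305.5 in K14 ablation, against 201.1 and 192.0 in K14 control. Every ablation library was thus above its controls, and the log2 fold change was 1.31 ± 0.37 in Lrig1 (SE, adjusted p = 0.0946, limma) and 0.92 ± 0.37 in K14 (adjusted p = 0.355). Cdc25b, a phosphatase that activates CDK complexes at G2, had 489.0 and 427.5 in Lrig1 ablation, against 338.8 and 301.7 in Lrig1 control, and 702.6 and 433.1 in K14 ablation, against 227.5 and 241.2 in K14 control. It rose in the mean of both effects (0.87 ± 0.16, limma adjusted p = 0.0334), higher in 4 of 4 ablation libraries, and was the only one of these genes with a larger point estimate in K14 by more than 0.5 (1.23 ± 0.23 in K14, 0.51 ± 0.23 in Lrig1). The difference of the effects, Lrig1 minus K14, was -0.72 ± 0.32 (adjusted p = 0.347). Cdca3, an adaptor that targets the CDK1 inhibitor Wee1 for degradation, had the smallest mean effect of the group (0.71 ± 0.25), with 450.8 and 203.0 in Lrig1 ablation, against 207.2 and 166.3 in Lrig1 control, which overlap. The other members, Ccna2, Ccnb1, Cdk1 and Cdc25c, had fold changes of 0.97 to 1.33 in Lrig1 and 0.62 to 0.84 in K14.

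Plk1, the Polo-like kinase that drives centrosome maturation and mitotic entry, had the largest mean effect of the 49 (1.64 ± 0.37, adjusted p = 0.0618). Its level was 244.1 and 93.1 in Lrig1 ablation, against 29.1 and 69.1 in Lrig1 control, and 382.8 and 226.2 in K14 ablation, against 93.4 and 107.3 in K14 control. The control and ablation libraries did not overlap within a label, yet the Lrig1 values differed by over 2-fold between replicates in each group, and Plk1 carried the largest SE of the list. Aurka, the spindle pole kinase, had 152.6 and 74.8 in Lrig1 ablation, against 65.2 and 39.5 in Lrig1 control, and 209.4 and 156.5 in K14 ablation, against 78.2 and 100.4 in K14 control, with a mean effect of 1.04 ± 0.27 (adjusted p = 0.0881).

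In the chromosomal passenger complex, which corrects wrong attachments and steers cytokinesis, all 4 genes were positive in both labels with a median mean effect of 0.71. Birc5 (survivin) had 304.4 and 131.3 in Lrig1 ablation, against 96.6 and 91.6 in Lrig1 control, and 376.4 and 234.8 in K14 ablation, against 179.8 and 183.1 in K14 control (mean effect 0.89 ± 0.27, adjusted p = 0.122). Incenp, the scaffold, had the smallest mean effect (0.60 ± 0.18, adjusted p = 0.126), with 732.2 and 441.0 in Lrig1 ablation, against 341.1 and 318.6 in Lrig1 control. Cdca8 (borealin) and the kinase Aurkb had fold changes of 0.84 and 0.73 in Lrig1 and 0.76 and 0.50 in K14.

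The 5 spindle assembly checkpoint genes spanned the widest range of mean effects of any role group, 0.08 to 1.25. Bub1b, whose protein BubR1 is part of the complex that blocks the APC/C, had 368.3 and 207.0 in Lrig1 ablation, against 114.1 and 107.1 in Lrig1 control, and 624.0 and 376.3 in K14 ablation, against 191.9 and 235.3 in K14 control. It rose in the mean of both effects by 1.25 ± 0.23 (adjusted p = 0.0301, limma), higher in 4 of 4 ablation libraries, although the adjusted p was 0.0621 in Lrig1 and 0.219 in K14 taken singly. With each library left out in turn the mean effect of Bub1b was 1.04 to 1.46. Its call did not hold without K14 ablation replicate 1, nor without any single control library. Bub3, a partner of Bub1 and BubR1, had 452.6 and 353.4 in Lrig1 ablation, against 429.6 and 396.1 in Lrig1 control, and 446.5 and 497.4 in K14 ablation, against 406.2 and 416.5 in K14 control. Its mean effect was 0.08 ± 0.12 and the Lrig1 groups overlapped, with a log2 difference of -0.04 that was positive with each library scaled to its total. The kinases Bub1 and Ttk had fold changes of 1.1 and 1.20 in Lrig1 and 0.75 and 0.55 in K14, and Mad2l1, the checkpoint protein Mad2, had 0.50 and 0.27.

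The anaphase genes had a median mean effect of 0.77, with all 5 positive in both labels. Cdc20, the APC/C activator, had 503.2 and 151.2 in Lrig1 ablation, against 104.8 and 117.0 in Lrig1 control, and 641.0 and 400.9 in K14 ablation, against 202.1 and 270.8 in K14 control. The Lrig1 ablation replicates differed 3.33-fold, the widest replicate ratio in the list, and the mean effect was 1.21 ± 0.35 (adjusted p = 0.113). Cdca5 (sororin, which protects cohesion) had 76.3 and 38.2 in Lrig1 ablation, against 37.3 and 29.6 in Lrig1 control, and 87.7 and 80.4 in K14 ablation, against 66.0 and 70.9 in K14 control, and the smallest mean effect of the group (0.49 ± 0.24). The E2 enzyme Ube2c, securin (Pttg1) and separase (Espl1) had fold changes of 0.86, 0.99 and 0.43 in Lrig1 and 1.01, 0.56 and 0.79 in K14.

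Cenpa (ENSMUSG00000029177, GRCm38 chromosome 5, 30666777 to 30674830, plus strand) encodes the histone H3 variant that marks the centromere, and it was the only gene of the 49 past the threshold within a single label. Its level was 386.0 and 271.4 in Lrig1 ablation, against 112.9 and 101.5 in Lrig1 control, and 478.3 and 314.1 in K14 ablation, against 205.1 and 213.7 in K14 control. Cenpa rose by 1.59 ± 0.25 on the log2 scale in Lrig1 (adjusted p = 0.0156, limma) and by 1.24 ± 0.17 in the mean of both effects (adjusted p = 0.0129), with 0.89 ± 0.25 (adjusted p = 0.23) in K14. The Lrig1 call rests on the control libraries of both labels, since its adjusted p was 0.0538 and 0.054 without K14 control replicate 1 and 2 singly, and 0.148 and 0.197 without Lrig1 control replicate 1 and 2 singly.

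The other inner kinetochore genes had smaller mean effects. Cenpk, a subunit of the constitutive centromere network, had 88.7 and 63.7 in Lrig1 ablation, against 59.4 and 42.3 in Lrig1 control, and 77.1 and 60.0 in K14 ablation, against 79.2 and 80.7 in K14 control. Both Lrig1 ablation libraries were thus above their controls and both K14 ablation libraries below theirs, but the difference of the effects (0.81 ± 0.40) did not pass the test (adjusted p = 0.391). Cenpi, Cenpm and Cenpn had fold changes of 0.48, 0.86 and 0.79 in Lrig1 and 0.57, 0.38 and 0.36 in K14, and the group's median mean effect was 0.58.

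**Figure D4:**
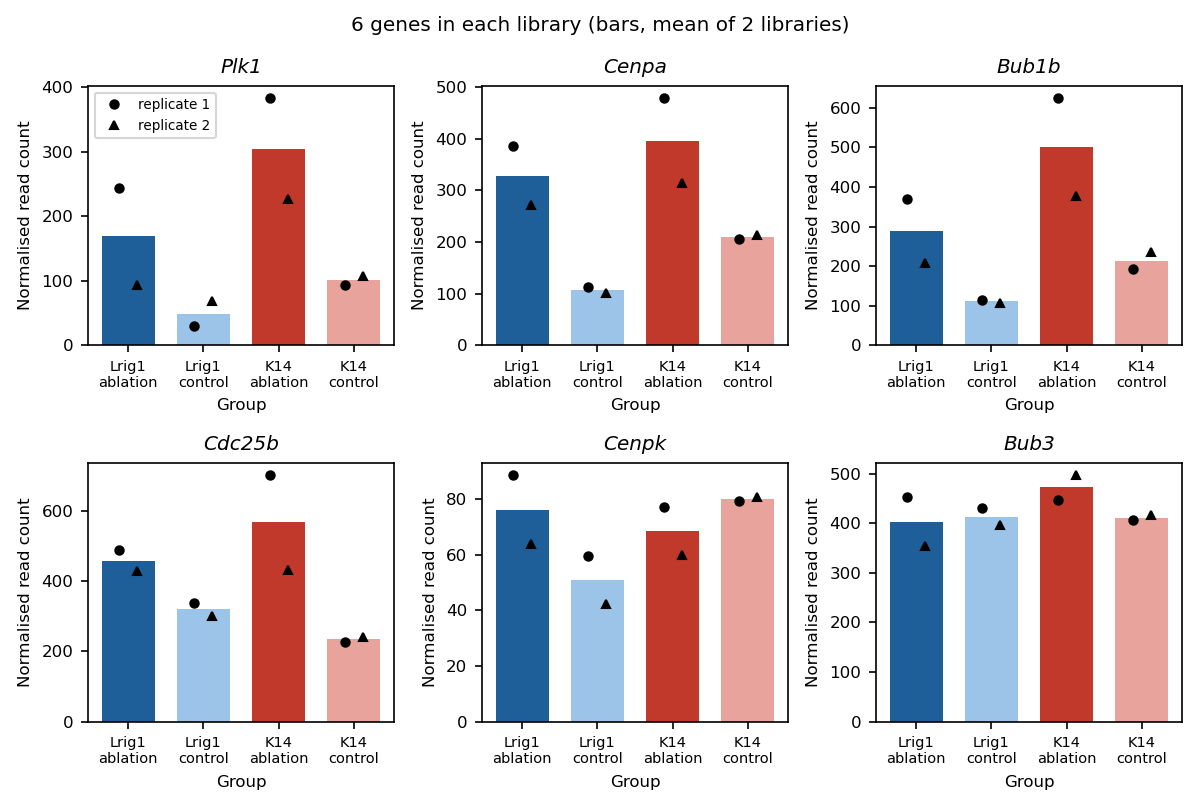
Normalised read counts of 6 genes in each library, with bars at the mean of the 2 libraries of a group, circles for replicate 1 and triangles for replicate 2. Plk1, Cenpa, Bub1b and Cdc25b are higher in every ablation library than in the controls of the same label, Cenpk differs in direction between the labels, and Bub3 lies between 353.4 and 497.4 throughout.

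The outer kinetochore and its fibrous corona bind microtubules, and all 6 genes were positive in both labels with a median mean effect of 0.68. Cenpe, a kinesin of the corona that carries chromosomes to the metaphase plate, had 821.8 and 556.4 in Lrig1 ablation, against 239.8 and 341.1 in Lrig1 control, and 1378.3 and 600.3 in K14 ablation, against 474.3 and 500.2 in K14 control (mean effect 1.07 ± 0.26, adjusted p = 0.0766). The K14 ablation replicates differed 2.3-fold. Spc25, of the Ndc80 complex, had the smallest mean effect (0.47 ± 0.25, adjusted p = 0.353), with 146.4 and 74.8 in Lrig1 ablation, against 55.9 and 83.2 in Lrig1 control, which overlap. Its partners Ndc80, Nuf2 and Spc24 had fold changes of 0.91, 0.96 and 0.72 in Lrig1 and 0.44, 0.60 and 0.64 in K14, and Cenpf, another corona protein, had 0.86 and 0.37.

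Spindle microtubule proteins had a median mean effect of 0.93 but were not uniform. Knstrn (kinastrin, a kinetochore and spindle protein) had 394.9 and 179.9 in Lrig1 ablation, against 111.8 and 128.3 in Lrig1 control, and 500.9 and 313.0 in K14 ablation, against 213.3 and 224.5 in K14 control (mean effect 1.00 ± 0.26, adjusted p = 0.0836). Nusap1, which bundles microtubules near chromosomes, had 438.4 and 226.9 in Lrig1 ablation, against 224.7 and 243.9 in Lrig1 control, and 554.0 and 344.1 in K14 ablation, against 389.0 and 407.6 in K14 control. Its groups overlapped in both labels and its mean effect was 0.28 ± 0.23 (adjusted p = 0.564). Dlgap5 (HURP, which stabilises kinetochore fibres) had 343.4 and 308.1 in Lrig1 ablation, against 171.1 and 176.2 in Lrig1 control, and 501.6 and 273.4 in K14 ablation, against 397.1 and 371.2 in K14 control. Its fold change was 0.90 ± 0.26 in Lrig1 and -0.05 ± 0.26 in K14, and their difference of 0.95 ± 0.37 was the only one of the 49 at an unadjusted p under 0.05 (adjusted p = 0.289). Tpx2, which activates Aurora A, and Hmmr had 1.15 and 1.07 in Lrig1 and 0.71 and 0.86 in K14.

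The 4 cytokinesis genes were positive in both labels, with a median mean effect of 0.64. Ect2, the exchange factor that activates RhoA at the cleavage furrow, had 669.2 and 410.8 in Lrig1 ablation, against 221.2 and 252.3 in Lrig1 control, and 971.4 and 578.9 in K14 ablation, against 436.7 and 465.7 in K14 control (mean effect 0.94 ± 0.20, adjusted p = 0.0548). Anln (anillin, the ring scaffold) had 1546.9 and 862.9 in Lrig1 ablation, against 739.2 and 771.1 in Lrig1 control, and 2003.7 and 1404.4 in K14 ablation, against 1410.6 and 1461.1 in K14 control, which overlap in K14 (mean effect 0.42 ± 0.19). Racgap1 and Prc1, of the central spindle, had fold changes of 0.92 and 0.71 in Lrig1 and 0.57 and 0.36 in K14.

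Genes of chromosome structure had the smallest median effect of the role groups in K14 (0.28), where all but Top2a and Ncaph overlapped between groups, and 0.83 in Lrig1, where none of the 6 did. Mki67, which coats mitotic chromosomes, had 8288.1 and 4730.1 in Lrig1 ablation, against 2967.4 and 3298.6 in Lrig1 control, and 10511.8 and 5137.2 in K14 ablation, against 5270.9 and 5360.9 in K14 control (mean effect 0.73 ± 0.25, adjusted p = 0.166). The higher K14 mean thus came from 1 of the 2 ablation libraries. The condensin subunit Smc4 had 2358.9 and 1780.7 in Lrig1 ablation, against 1357.4 and 1509.7 in Lrig1 control, and 2314.3 and 1716.3 in K14 ablation, against 2091.1 and 1983.9 in K14 control (mean effect 0.24 ± 0.14). The condensin subunits Smc2, Ncapg and Ncaph and the topoisomerase Top2a had fold changes of 0.71, 0.91, 0.89 and 0.77 in Lrig1 and 0.28, 0.23, 0.27 and 0.46 in K14.

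Set per kilobase of exon, Mki67 had the highest level of the 49 in every group, at 647.0 normalised reads per kb in Lrig1 ablation, against 311.4 in Lrig1 control, and 777.7 in K14 ablation, against 528.4 in K14 control. Smc4 and Top2a were next in every group. Cenpk was the lowest in Lrig1 ablation, K14 ablation and K14 control (14.6, 13.1 and 15.3 per kb), and Cdc25c in Lrig1 control (8.56). Plk1 ranked 17 of 49 in Lrig1 ablation, against 33 in Lrig1 control, and 15 in K14 ablation, against 32 in K14 control. These ranks depend on the length used, and with the longest transcript in place of all exons Plk1 ranked 31 in Lrig1 ablation, against 44 in Lrig1 control, and 19 in K14 ablation, against 39 in K14 control. On that length Smc4 (332.1) lay above Mki67 (311.4) in Lrig1 control, and Top2a (575.9) above Smc4 (466.9) in K14 ablation. Cenpk was then the lowest only in K14 ablation.

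Whether the ablation effect differed between the labels was tested as the difference of the effects, Lrig1 minus K14. It was positive for 43 of 49 genes, with a median of 0.35 and a range of -0.72 to 0.95, where the median over all genes was -0.03. None of the 49 passed the adjusted threshold by limma, edgeR or DESeq2, where 0.198, 0.176 and 1.67% of all genes did, and 1 had an unadjusted p under 0.05, beside 15% of all genes. The median turned to -0.17 without Lrig1 ablation replicate 1 and was 0.81 without replicate 2, so its sign rests on 1 library. It was 0.63 without K14 ablation replicate 1 and 0.03 without replicate 2.

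The controls themselves differed in level. The 49 genes were lower in Lrig1 control than in K14 control in 47 cases, with a median log2 difference of -0.86 and a range of -1.16 to 0.45, where the median over all genes was -0.00. Both Lrig1 control libraries lay below both K14 control libraries in 47 of 49, where 34.4% of all genes did so. Cdc25b lay above in both, as 34.5% of all genes did, and Bub3 overlapped. Dlgap5 (171.1 and 176.2 in Lrig1 control, against 397.1 and 371.2 in K14 control) was lower by the test at -1.14 ± 0.26 (adjusted p = 0.035, limma), the only 1 of 49, where 2.27% of all genes passed as lower and 8.79% in either direction. By edgeR 1 of 49 passed (7.7% of all genes), and by DESeq2 9, all lower (8.93%). At an unadjusted p under 0.05, 30 of 49 were lower, beside 10.4% of all genes. Cenpm, of the inner kinetochore, and Tpx2 had the largest differences, -1.16 ± 0.32 and -1.16 ± 0.41, with adjusted p of 0.0653 and 0.125. The count depends on which libraries set the spread, since in a fit of these 4 libraries alone 45 of 49 were lower and 1 higher (Cdc25b), beside 40.1% of all genes called, and without any 1 of the 4 control libraries none passed by limma (0.00559 to 0.533% of all genes), with 9 to 16 at an unadjusted p under 0.05 (13.7 to 15%). Without Lrig1 ablation replicate 1 or 2 there were 29 and 30 (19.7 and 19.9%), and without either K14 ablation library 4 (11.1 and 11%). This comparison and the Lrig1 effect share the Lrig1 control libraries.

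Between the ablation groups the difference was smaller in the median, -0.52 for Lrig1 ablation against K14 ablation, with 47 of 49 negative and a range of -0.96 to 0.14. None of 49 passed by limma, edgeR or DESeq2, where 0.667, 0.744 and 3.67% of all genes did, and 2 were lower at an unadjusted p under 0.05, beside 8.27% of all genes. Both Lrig1 ablation libraries lay below both K14 ablation libraries in 6 genes (Aurka, Bub1b, Cdca5, Cenpi, Cenpm and Spc24), where 20% of all genes did so, and the other 43 overlapped. The median was -0.04, with 19 of 49 positive, without Lrig1 ablation replicate 2, and -0.97 without replicate 1. It was -0.24 without K14 ablation replicate 1 and -0.79 without replicate 2. Without Lrig1 ablation replicate 1, 27 of 49 passed as lower, where 13.7% of all genes did.

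Around the 49 genes, 112 other cell cycle genes were listed by role and 111 were tested. In Lrig1, 87 of 111 had a positive ablation effect. By limma 2 rose and 2 fell, where 4.06% of all genes passed, and 42 had an unadjusted p under 0.05, beside 20.1% of all genes. In K14, 78 of 111 were positive and none passed by limma, where 0.187% of all genes did. There 11 had an unadjusted p under 0.05, beside 12.8% of all genes. Kntc1, of the kinetochore complex that recruits dynein, rose by 1.19 ± 0.21 in Lrig1 (adjusted p = 0.0232, limma), with 367.4 and 281.8 in Lrig1 ablation, against 139.7 and 141.0 in Lrig1 control. Cdc25a, a phosphatase of the S phase CDKs, rose by 0.90 ± 0.18 (adjusted p = 0.0342, limma). The Kntc1 and Cdc25a calls in Lrig1, like that of Cenpa, rest on the Lrig1 control libraries, since they did not hold without Lrig1 control replicate 1. Of 5 CDK inhibitors, Cdkn1a and Cdkn2b fell in Lrig1, while Cdkn1b, Cdkn1c and Cdkn2c had log2 fold changes of 0.02, 0.55 and -0.10 in Lrig1 and 0.10, -0.79 and 0.14 in K14. Cdkn1a, which encodes p21, had 462.4 and 659.1 in Lrig1 ablation, against 1553.0 and 1581.6 in Lrig1 control, and 791.0 and 638.9 in K14 ablation, against 1161.8 and 1142.1 in K14 control. It fell by 1.50 on the log2 scale in Lrig1 (SE 0.19, adjusted p = 0.00848) and by 1.1 in the mean of both effects (adjusted p = 0.009). Cdkn2b, which encodes p15, fell by 2.35 in Lrig1 (SE 0.25, adjusted p = 0.00425), with 23.1 and 26.3 in Lrig1 ablation, against 121.1 and 138.1 in Lrig1 control. With either Lrig1 control library left out, almost no gene of the whole table passed in Lrig1. Whether Cdkn1a and Cdkn2b did is not shown here.

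Among the regulators of mitotic transcription, Mybl2 (B-Myb) had 159.7 and 96.3 in Lrig1 ablation, against 64.0 and 46.5 in Lrig1 control, and 145.0 and 120.1 in K14 ablation, against 66.0 and 60.1 in K14 control. It rose in the mean of both effects (1.11 ± 0.21, adjusted p = 0.0363, limma). With any single control library left out, very few genes of the whole table passed as higher in the mean effect. Whether Mybl2 did is not shown here. Foxm1 had 427.8 and 234.8 in Lrig1 ablation, against 156.0 and 143.8 in Lrig1 control, and 499.5 and 385.9 in K14 ablation, against 292.5 and 310.1 in K14 control, and its mean effect of 0.81 ± 0.19 did not pass (adjusted p = 0.0706). Ccnd1, the G1 cyclin D1, had a mean effect of 0.02 ± 0.18. The 20 DNA replication genes had a median effect of 0.72 in Lrig1 and 0.40 in K14, with 18 of 20 positive in each and none past the threshold by limma, where 14 in Lrig1 and 3 in K14 had an unadjusted p under 0.05, beside 20.1 and 12.8% of all genes. The 25 other kinetochore genes had medians of 0.58 and 0.24, with 23 and 19 positive. The 15 APC/C genes had medians of 0.12 and 0.06, close to 0. In Lrig1 control against K14 control, Kntc1, Pds5b, Wee1, Cdc6 and Pola1 were lower and Cdkn2b higher past the threshold, 6 of 111 beside 8.79% of all genes.

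The make-up of the libraries also differed with ablation, and between the controls. The summed level of 7 differentiated keratinocyte markers was 32397.9 and 31621.8 in Lrig1 ablation, against 103247.1 and 117774.5 in Lrig1 control, and 79675.6 and 53655.9 in K14 ablation, against 67613.7 and 63054.3 in K14 control. In Lrig1, 4 of the 7 fell (Krt10, Lor, Sbsn and Calm4), where 3.3% of all genes passed as lower, and the median of the 7 was -2.03. In K14 none of the 7 passed by limma, with 4 at an unadjusted p under 0.05, beside 12.8% of all genes. There 6 of 7 were negative with a median of -0.49, and Krt1, the only positive one, had 1.05 ± 0.28 (limma adjusted p = 0.221). The 7 basal markers summed to 209177.9 and 90747.4 in Lrig1 ablation, against 107215.7 and 116746.9 in Lrig1 control, and 214964.4 and 206410.5 in K14 ablation, against 180521.5 and 177685.7 in K14 control. All 7 basal markers had a positive effect in Lrig1 (median 0.45), and 4 of 7 had in K14 (median 0.07). None of the basal markers passed the test of ablation by limma. At an unadjusted p under 0.05 there were 1 in Lrig1 and 0 in K14, beside 20.1 and 12.8% of all genes. Lrig1 ablation replicate 2, the lower of its pair in all 49 division genes, also had the lowest summed basal markers of the 8 libraries. It was the lowest library for Krt5, Krt14 and Col17a1 but not for the other 4 markers (Itga6, Itgb4, Trp63 and Krt15). The 5 endothelial markers summed to 49.7 and 122.6 in Lrig1 ablation, against 759.0 and 813.4 in Lrig1 control, and 4 of 5 fell, where 3.3% of all genes did. With either Lrig1 control library left out, fewer genes of the whole table passed as lower in Lrig1 than differentiated and endothelial markers fell here. Some of these marker calls thus rest on the Lrig1 control libraries. In the K14 libraries the endothelial markers summed to 51.5 to 96.9. The 6 myeloid and Langerhans cell markers summed to 173.1 and 227.7 in Lrig1 ablation, against 669.4 and 881.0 in Lrig1 control, and to 309.9 and 1135.3 in K14 ablation, against 265.1 and 402.7 in K14 control. The 5 T cell markers summed to 5.32 to 34.3 and the 5 fibroblast markers to 78.2 to 246.8 in the 8 libraries. In Lrig1 control against K14 control, 7 of 7 differentiated markers were positive (median log2 difference 1.54). So were 5 of 5 endothelial (4.66) and 5 of 6 myeloid and Langerhans cell markers (2.33). In each of these 3 lists 4 passed as higher by limma, where 8.79% of all genes passed in either direction and 1183 of 18140 as higher. With either Lrig1 control library left out, fewer genes of the whole table passed as higher between controls than these lists hold calls. Most of these marker calls thus rest on the Lrig1 control libraries. Of the 7 basal markers 1 was positive and passed as higher, and their median was -0.8. The part of these shifts in the levels of the division genes was not tested.

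**Figure D5:**
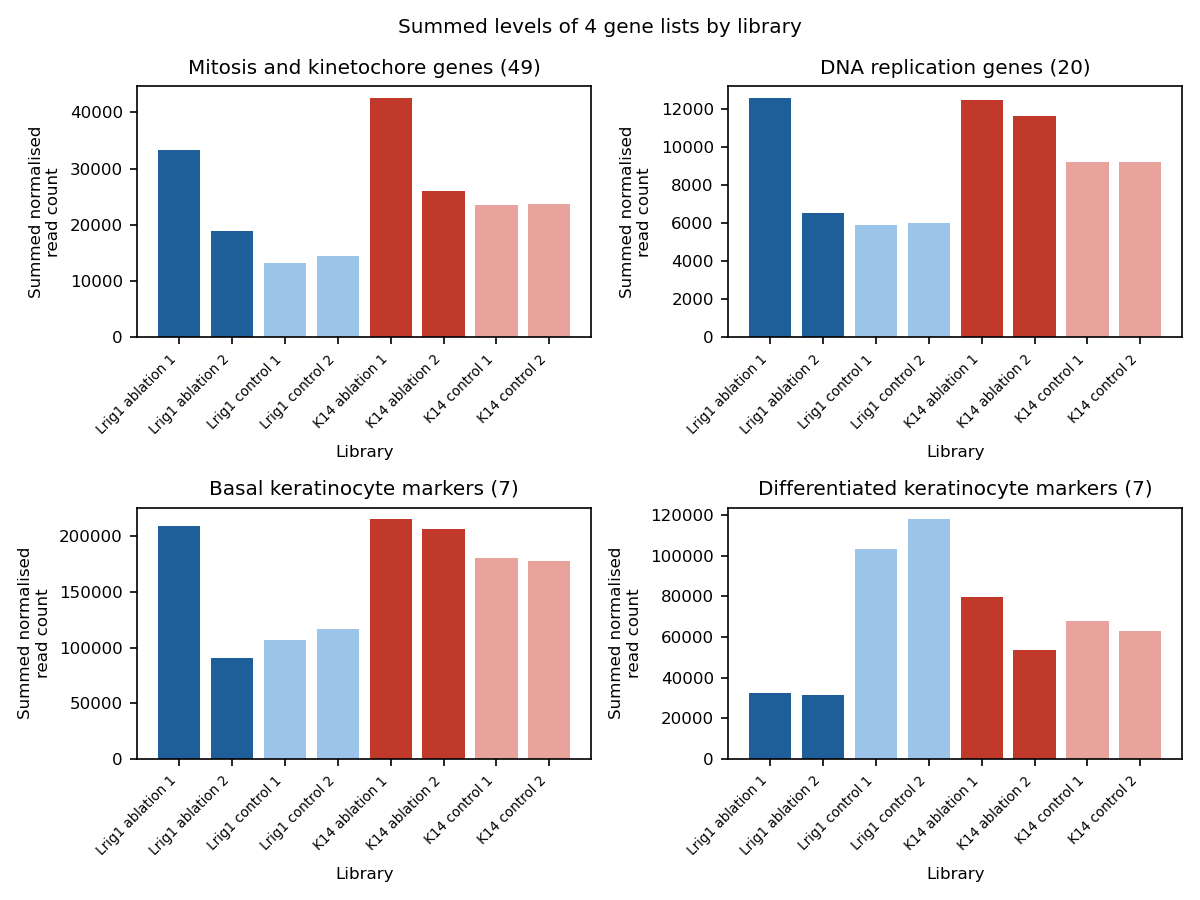
Summed normalised read counts (y axes, from 0) of the 49 mitosis and kinetochore genes, 20 DNA replication genes, 7 basal and 7 differentiated keratinocyte markers in the 8 libraries. Replicate 1 is above replicate 2 in the division genes of both ablation groups, and Lrig1 ablation replicate 2 has the lowest basal marker sum, at 90747.4.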

How the data were processed

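Epithelial cells sorted from mouse skin epidermis were sequenced as polyA RNA with the Ovation Solo kit, per the labels' protocols. Per the submitters' processing notes, Trimmomatic, STAR, Picard and HTSeq 0.11.1 were used with GRCm38 (mm10). No source used here gives their settings. What was deposited is 1 normalised signal value for each gene and library, and these values are whole multiples of 1 step per library within 0.001 (100% of values), as read counts divided by a size factor would be, and reads were recovered from that step.

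Columns were matched to samples by label and number. The ablation columns carry another word than the labels and were matched as the only group left, with 1.1 read as replicate 1. Values were tested as log2(value + 1), which understates changes of low genes, with limma 3.58.1 in R 4.3.3, in 1 fit of 4 group means (4 residual and 4.13 prior degrees of freedom). The 18140 genes tested reached 1e-06 of a library's total in 2 or more libraries, and p-values were Benjamini-Hochberg adjusted over these at 0.05. Alternatives were other pseudocounts (0.5, 5), filters and scalings, edgeR 4.0.16, DESeq2 1.42.0, array weights, a replicate block and leaving out each library. The limma and edgeR fits, but not DESeq2, were run on simulated counts. These had the same spread in all libraries, so the unequal spread of the real groups was not simulated.

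The 49 genes, the other gene lists and the tests were chosen with earlier results of these data known. Named in full are genes past the threshold and, in each role group, those with the largest and smallest mean effect, and of the other cell cycle genes those past the threshold with Foxm1, Mybl2, Cdkn1a and Ccnd1. Coordinates and exon lengths are from GENCODE M21 on GRCm38, matched for 32427 identifiers, and promoters from RefSeq on GRCm38.p6.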

Additional observations from a re-analysis of the deposited data

How the results depend on the processing

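The medians of the 49 genes were positive for the Lrig1, K14 and mean ablation effects and negative between controls and between ablation groups under every alternative run, and only the median of the difference of effects turned (-0.17 without Lrig1 ablation replicate 1, with a range of -0.17 to 0.81 over libraries left out). The number of genes past the threshold did depend on the setting. In Lrig1, where 1 passed, 12 did with each library scaled to its total (5.06% of all genes), 21 with DESeq2 (5.5%), 0 in a fit of its 4 libraries alone (0.937%) and 0 to 36 with 1 library left out (0.0279 to 13.9%). In K14, where 0 passed, 3 did with DESeq2 (Cdc25b, Plk1 and Bub1b, 1.22%) and 3 with array weights (Cdc25b, Bub1b and Cenpa, 2.63%), and 0 to 2 with 1 library left out (0 to 4.17%). For the mean effect, where 3 passed, 12 did with total scaling (3.61%), 29 with DESeq2 (5.07%), 21 with array weights (4.48%) and 0 to 42 with 1 library left out (0.246 to 14.6%). Between controls, where 1 passed, 2 did with the filter at 1e-05 (10.7%), 6 with total scaling (8.64%), 9 with DESeq2 (8.93%), 46 in a fit of the 4 libraries alone (40.1%), 47 with array weights (37.2%) and 0 to 30 with 1 library left out (0.00559 to 19.9%). Between ablation groups, where 0 passed, 0 to 27 did with 1 library left out (0 to 22.5%). Total scaling moved the median of all genes to 0.229 in Lrig1, where that of the 49 was then 1.151, to 0.122 in the mean effect, to 0.19 in the difference of effects and to 0.107 between ablation groups. The mean and the difference of effects have no fit of 4 libraries alone. The cause of these changes was not tested, except that leaving out a library or taking 4 alone leaves fewer libraries for the spread. A group left with 1 library was assumed to vary like the others.

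With the replicate number as a block, 3 of the 49 passed between controls instead of 1 (Incenp, Cenpa and Dlgap5), where 7.3% of all genes did, and the counts in the Lrig1, K14 and mean effects stayed at 1, 0 and 3 (2.78, 0.116 and 1.92% of all genes). Same-numbered libraries had correlations of their deviations from -0.049 to 0.084, which show no pairing by number. They cannot exclude it, since counting error is a large part of the spread between control replicates.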

Other observations

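Set against the basal keratinocyte markers, the summed level of the 49 genes was 15.9 and 20.9% of the summed basal markers in Lrig1 ablation, against 12.4 and 12.4% in Lrig1 control, and 19.8 and 12.6% in K14 ablation, against 13 and 13.4% in K14 control. On that scale Lrig1 ablation replicate 2 was the highest of the 8 libraries, and K14 ablation replicate 2 lay below both K14 controls, but both orders turn with the markers summed. Most of the sum is Krt5 and Krt14, and against the other 5 basal markers, a choice made after seeing the data, the 49 genes came to 55.1 and 57.4% in Lrig1 ablation, against 41.3 and 41.7% in Lrig1 control, and 78.2 and 52.2% in K14 ablation, against 41.5 and 41.1% in K14 control. There K14 ablation replicate 1 was the highest and every ablation library lay above its controls. Set against the 20 DNA replication genes, the sum of the 49 was 2.65 and 2.91 times theirs in Lrig1 ablation, against 2.26 and 2.41 in Lrig1 control, and 3.41 and 2.24 times in K14 ablation, against 2.54 and 2.58 in K14 control. The K14 ablation replicates thus lay on either side of their controls in this ratio, since K14 ablation replicate 2 was close to replicate 1 in replication genes (11625 and 12466 for replicates 2 and 1) and far below it in division genes. Mki67 alone made up much of the sum, and without it the 49 took 0.317 and 0.197% of all reads in Lrig1 ablation, against 0.116 and 0.123% in Lrig1 control, and 0.388 and 0.251% in K14 ablation, against 0.217 and 0.218% in K14 control.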
